A study of Mus musculus with 12 samples.

Results

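The cadherin superfamily of mouse monocytes is described here through 9 genes, among 52553 genes and unnamed transcripts with a count. They are the protocadherin Pcdh7, the gamma protocadherins Pcdhgb4, Pcdhga10, Pcdhgb6 and Pcdhgb7, the classical and type II cadherins Cdh1, Cdh2 and Cdh24, and the intestinal cadherin Cdh17. They were taken by name from the count tables, and all 9 passed the filter on low counts that left 20135 features to test. RNA was sequenced from CD115+ cells of male C57BL/6 mice, taken from spleen or from peripheral blood and held on magnetic beads against CD115, the product of Csf1r. The mice were either intact, with spleen and liver untouched, or had lost 70% of the liver mass 24 h earlier and kept the spleen. Each of the 4 groups had 3 libraries, each made from monocytes of 5 mice. Splenic cells had been released with collagenases, and both kinds of cell were taken from a density gradient. The ages of the mice were not given in the sources used here, and the p-values below measure the spread between these libraries.

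The choice of genes followed measured values. Of the 9 genes, 8 were called in blood monocytes after resection, 7 higher and 1 lower, and those 8 are the genes with a CDH or PCDH symbol that were called there. Resection in blood is therefore described, and so are the other comparisons that use blood libraries. For the 9 genes no p is given in them, and a call there says which side of the threshold a gene lay on and supports nothing. The genes were most likely chosen on resection in blood, so resection in spleen was tested. That the splenic libraries had no part in the choice is not established. They share the filter on low counts and the dispersion of the fit with the blood libraries, and Cdh1 was chosen without a call in blood.

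Cadherins are membrane proteins whose extracellular repeats bind calcium and adhere to cadherins of neighbouring cells. Classical and type II cadherins hold cells together through catenins, which link their tails to actin. Clustered protocadherins lie in the alpha, beta and gamma gene clusters. Each gamma gene has its own large first exon with its own promoter, spliced to constant exons that all gamma genes share, and neurons use the resulting mixture of isoforms to tell their own branches from those of other neurons. These proteins are best known from nerve cells and epithelia, while E-cadherin, encoded by Cdh1, also occurs on macrophages and dendritic cells.

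The libraries held from 36990033 to 46401368 estimated counts. Levels are given as CPM, the counts of a gene per 1000000 counts of the tested features in that library, with library sizes adjusted by TMM factors, and 3 counts, taken as the limit of counting, stood for 0.0626 to 0.102 CPM. Csf1r itself was at 374 to 525 CPM in intact spleen, 587 to 1192 CPM in spleen after resection, 209 to 467 CPM in intact blood and 601 to 719 CPM in blood after resection. Haemoglobin genes took from 13.2% to 34.2% of the counts of blood libraries and from 0.0814% to 3.47% of those of spleen. Library 3 of intact blood stood apart. In it 231 of the 20135 tested features were more than 5 times as high as in any other library, against 0 to 14 features in the other 11 libraries, and its summed T cell markers were at 2274 CPM against 786 and 765 CPM in the other intact blood libraries. Calls without this library are given together near the end, and beside a gene where its value turns on it.

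Most of the 9 genes were weakly expressed, and their order changed between the groups. Compared per kilobase of transcript, which allows levels of different genes to be set side by side, Cdh17 led in intact spleen with 2.41 ± 0.621 CPM per kilobase (mean ± SD, n = 3), followed by Cdh24 with 1.51 ± 0.349 and Cdh1 with 0.306 ± 0.0402. The libraries of these 3 genes did not overlap each other or those of the fourth gene, Pcdhgb7, while the neighbours from Pcdhgb7 down to Pcdh7, the lowest with 0.0144 ± 0.00645 CPM per kilobase, each overlapped the next. In spleen after resection Cdh17 stayed at the top with 2.27 ± 0.652 CPM per kilobase, Cdh1 and Cdh24 overlapped at 0.671 ± 0.327 and 0.644 ± 0.0694, and the 6 genes below them differed by less than their spread from one to the next. Intact blood had Cdh24 first with 1.58 to 7.77 CPM per kilobase, then Cdh17 and Cdh1, which overlapped, and Cdh2 last with 0.0137 ± 0.00322, below the libraries of every other gene of the 9. In blood after resection Pcdh7 had moved from the eighth place to the first, with 3.32 ± 2.29 CPM per kilobase. Its libraries overlapped those of Cdh17 with 2.26 ± 0.655 and those of Cdh1 with 1.07 ± 0.353.

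**Figure D1:**
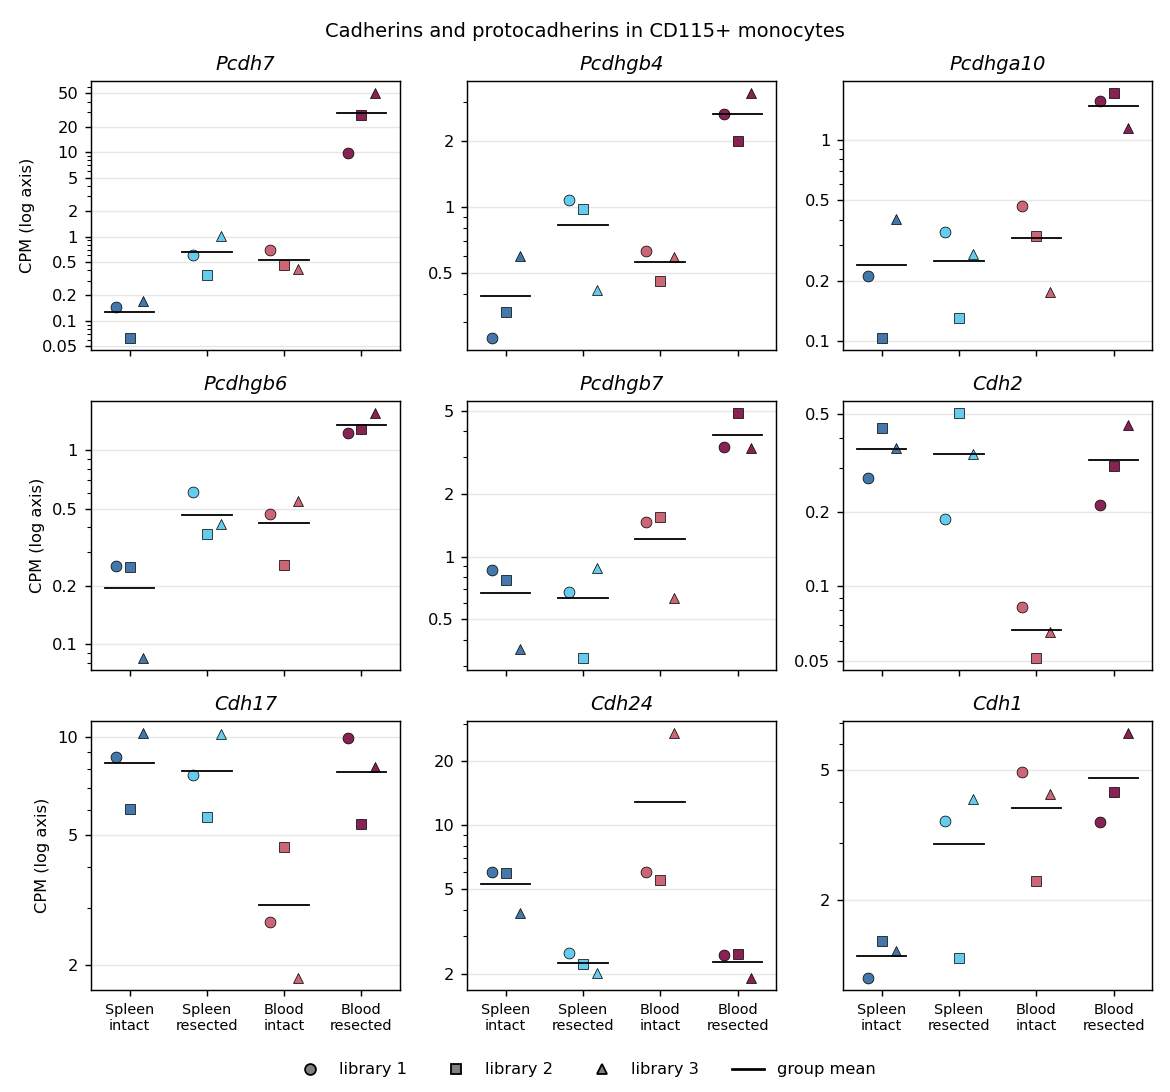
CPM of the 9 genes in each of the 12 libraries (log axis, a scale of its own for each gene), with spleen in blue, blood in red, symbols for libraries 1 to 3 and a line at the group mean. Pcdh7 and the 4 gamma protocadherins have their highest 3 libraries in blood after resection, and Cdh24 has its highest value, 27.1 CPM, in library 3 of intact blood.

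Pcdh7, a non-clustered protocadherin known from the developing brain and as a surface receptor of bone-resorbing cells, had the largest change of the 9 genes. In intact blood its 3 libraries held 0.688, 0.462 and 0.415 CPM, from 18 to 25 counts. After resection they held 9.89, 27.4 and 50.1 CPM, from 324, 808 and 1779 counts. Every library after resection was far above every intact library, and the 3 libraries after resection themselves spanned a wide range. The log2 fold change was 5.80 (SE 0.70), and leaving out each library in turn gave from 5.18 to 6.21.

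Promoter sequences from RefSeq matched 2 of the 9 genes, Pcdh7 and Cdh24, and both are shown, since these 2 genes had the highest and the lowest log2 fold change of the 9 in blood. The windows run from 250 bases before to 50 bases after the annotated start in GRCm38.p6, on the plus strand at chr5:57717831-57718130 for Pcdh7 and on the minus strand at chr14:54641315-54641614 for Cdh24. The motif CAGGTG, or CACCTG on the other strand, is the E-box bound by the Snail and ZEB repressors of cadherin genes, and it is in capitals.
Pcdh7: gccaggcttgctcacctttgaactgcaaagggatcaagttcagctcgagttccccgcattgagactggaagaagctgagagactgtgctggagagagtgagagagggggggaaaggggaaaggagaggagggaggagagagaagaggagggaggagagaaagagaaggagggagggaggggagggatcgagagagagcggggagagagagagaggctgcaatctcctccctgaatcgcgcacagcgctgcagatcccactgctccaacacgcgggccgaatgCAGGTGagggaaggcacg
Cdh24: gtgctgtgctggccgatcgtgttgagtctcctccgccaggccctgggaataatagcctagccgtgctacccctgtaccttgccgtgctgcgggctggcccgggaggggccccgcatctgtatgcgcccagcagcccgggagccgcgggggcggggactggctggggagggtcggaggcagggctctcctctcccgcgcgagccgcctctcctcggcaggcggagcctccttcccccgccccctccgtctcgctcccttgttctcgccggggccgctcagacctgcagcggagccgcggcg
The Pcdh7 window held 1 copy, whose first base is base 283 of the window, and the Cdh24 window held 0. Of all 32851 promoter windows of this length, 20.2% held the motif on either strand. The GC content was 59.3% for Pcdh7 and 73.3% for Cdh24.

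The 4 gamma protocadherins were also higher in blood after resection, from low counts. Pcdhgb7 stood at 1.46, 1.54 and 0.633 CPM in intact blood and at 3.33, 4.86 and 3.32 CPM after resection. Pcdhgb4 went from 0.633, 0.462 and 0.590 CPM to 2.66, 2.00 and 3.29 CPM. For both genes the lowest library after resection was above the highest intact one. Pcdhga10 was at 0.468, 0.334 and 0.175 CPM in intact blood and at 1.56, 1.70 and 1.15 CPM after resection, and Pcdhgb6 at 0.468, 0.257 and 0.546 CPM and then at 1.22, 1.29 and 1.55 CPM. These values rest on 8 to 60 counts per library in intact blood and on 38 to 143 counts after resection. The log2 fold changes were 2.23 (SE 0.49) for Pcdhgb4, 2.17 (SE 0.62) for Pcdhga10, 1.67 (SE 0.51) for Pcdhgb6 and 1.66 (SE 0.52) for Pcdhgb7. Just inside the call were Pcdhgb7 and Pcdhgb6. Of the 11 tested gamma genes that were not chosen, 0 were called, which follows from the choice. Among them 5 had a positive log2 fold change and the median was -0.27. Without library 3 of intact blood 12 were tested, 2 were called higher, Pcdhga8 and Pcdhgc3, and the median was 0.51. With all libraries in the fit, nearest to the call were Pcdhga6 with 1.73 (SE 0.74) and Pcdhga8 with 1.67 (SE 0.76), at adjusted p of 0.124 and 0.14 in edgeR. The lowest were Pcdhgc3 with -2.54 (SE 1.45) and Pcdhga12 with -1.69 (SE 1.11). Library 3 of intact blood was the highest library for both. It held 37.2 CPM of Pcdhgc3, against 0.44 and 0.231 in the other intact blood libraries, and 1.86 CPM of Pcdhga12, against 0.165 and 0.488.

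Reads from the shared exons cannot be placed by sequence. In the GENCODE M21 annotation of GRCm38, which was used only for lengths, a gamma transcript shares from 13.4% to 45.5% of its bases with other gamma genes, and the 4 chosen genes share from 44.8% to 45.4%. The estimated counts show a division of reads. Of the 48 values of the 4 genes, 1 was a whole number to within 0.0005 counts, against 46 of the 48 values of Cdh1, Cdh2, Cdh17 and Cdh24. How reads were divided among the gamma genes is not given in the sources used here, so the value of any single gamma gene is uncertain, and sums over the cluster are less so.

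Summed over the cluster, the 19 genes of the A and B types were at 5.4 to 7.56 CPM in intact blood and at 13 to 14.5 CPM after resection, a comparison that was not tested because it includes the 4 chosen genes. The share of the 4 chosen genes in this sum was 64.4% to 69.2% in blood after resection and 25.7% to 52.1% in intact blood. In spleen the share was 32.5% to 37.8% in intact mice and 39.7% to 50% after resection. The 15 other A and B genes together stood at 2.78, 2.80 and 5.61 CPM in intact blood and at 4.27, 4.38 and 5.15 CPM after resection, so their groups overlapped through library 3 of intact blood. The 3 genes of the C type also overlapped between the groups, through the same library. They were at 1.38, 0.951 and 42.4 CPM in intact blood, the last again library 3, where Pcdhgc3 alone had 1702 counts. After resection they were at 2.5, 4.28 and 3.01 CPM, each above libraries 1 and 2 of intact blood.

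**Figure D2:**
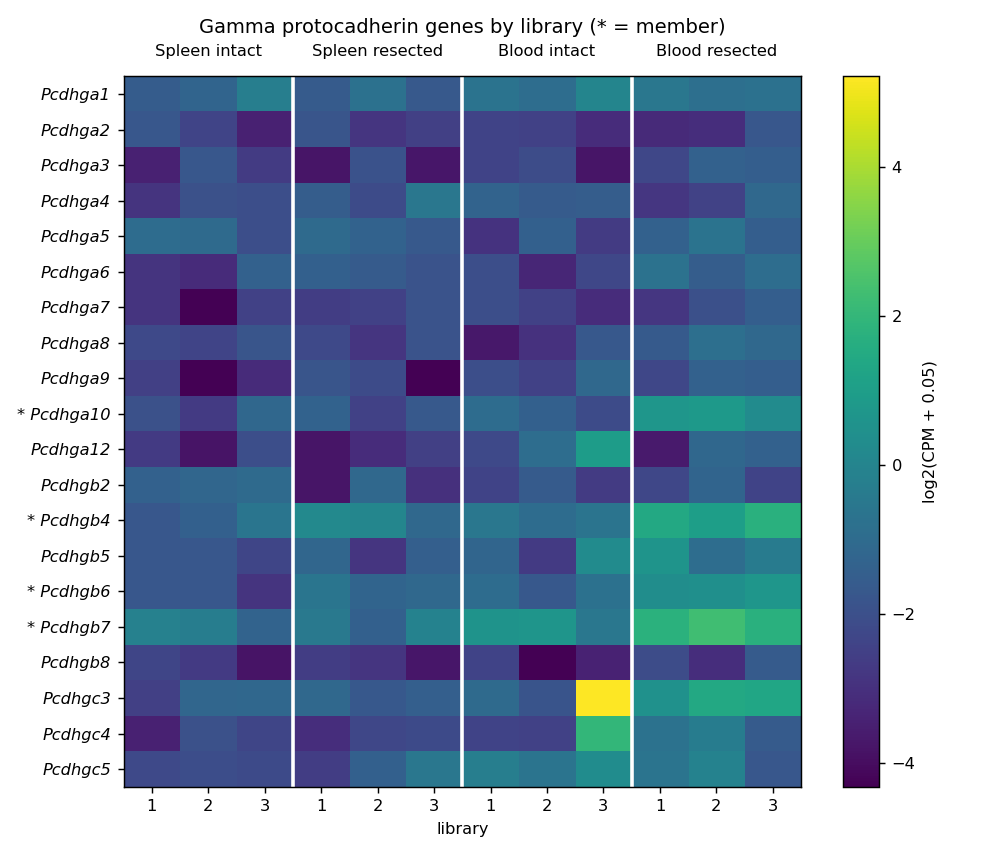
Heat map of log2(CPM + 0.05) for the 20 gamma protocadherin genes with at least 10 counts in a library (rows, the 4 described genes starred) in the 12 libraries (columns). The starred genes are brightest in the 3 libraries of blood after resection, and the brightest cell is Pcdhgc3 in library 3 of intact blood, 37.2 CPM.

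**Figure D3:**
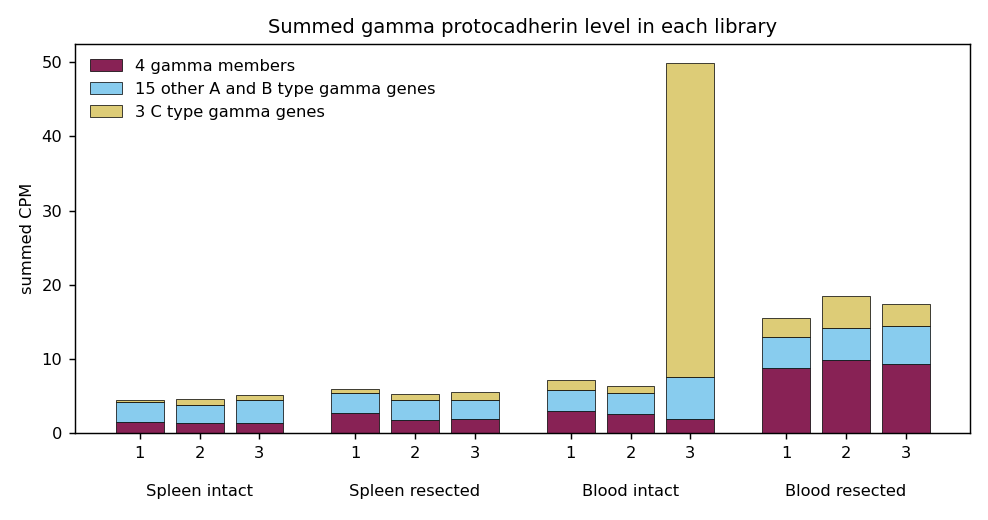
Summed CPM of the gamma cluster in each library, split into the 4 described genes, the 15 other A and B type genes and the 3 C type genes. The total is 4.52 to 6.02 CPM in spleen, 15.5 to 18.5 CPM in blood after resection and 49.9 CPM in library 3 of intact blood, where C type genes make up most of the bar.

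Cdh17 and Cdh2 were low in intact blood and higher after resection. Cdh17, an adhesion protein of the intestine that is also known from B cells, had 2.72, 4.6 and 1.83 CPM in intact blood and 9.95, 5.43 and 8.08 CPM after resection. The groups did not overlap, and the log2 fold change was 1.36 (SE 0.40). After resection libraries 1 and 3 of blood lay within the range of splenic monocytes for Cdh17, 5.70 to 10.3 CPM over the 6 splenic libraries. Library 2, at 5.43 CPM, lay just below that range. Cdh2, which encodes N-cadherin, had 3, 2 and 3 counts in intact blood, at the limit of counting, and 7, 9 and 16 counts after resection. Against that limit Cdh2 was at least 4.31-fold higher after resection. In the 6 splenic libraries Cdh2 had from 8 to 23 counts.

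Cdh24, a type II cadherin that binds catenins, was the only one of the 9 called lower in blood after resection. It stood at 6, 5.5 and 27.1 CPM in intact blood and at 2.44, 2.48 and 1.91 CPM after resection, so that all 3 libraries were below the lowest intact one. The log2 fold change was -2.50 (SE 0.57), and without library 3 of intact blood, which had 1241 counts of Cdh24 against 68 to 286 in the other 11 libraries, it was -1.34. Cdh1, which encodes E-cadherin, had 4.95, 2.29 and 4.24 CPM in intact blood and 3.48, 4.28 and 6.50 CPM after resection. The groups overlapped, and the log2 fold change was 0.31 (SE 0.46).

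In blood after resection 7 of the 9 genes were called higher, beside 7.80% of all features tested, and 1 was called lower, beside 6.11%. The libraries of intact and resected mice did not overlap for 8 of the 9, beside 38.4% of all features. These counts follow from the choice of genes. The call itself was unequal among them. In the 12 fits that each left out 1 library, Pcdh7 and Pcdhgb4 were called in all 12, Cdh24 in 11 and Cdh2 in 9. Cdh24 lost its call without library 3 of resected blood (-2.32), and Cdh2 without libraries 2 (2.28) or 3 (1.95) of resected blood or library 2 of intact blood (2.11). Pcdhga10 was called in 6 fits, losing its call without library 1 of intact spleen, any library of resected blood, or libraries 2 or 3 of intact blood (1.86 to 2.33). Cdh17 was called in 6, losing its call without library 1 of intact spleen, resected spleen or intact blood, libraries 1 or 3 of resected blood, or library 3 of intact blood (1.09 to 1.35). Pcdhgb7 was called in 3, those without library 3 of intact spleen or libraries 2 or 3 of resected spleen, and Pcdhgb6 in 2, those without library 3 of intact spleen or of intact blood. The log2 fold changes without 1 library ran from 1.35 to 1.88 for Pcdhgb7 and from 1.44 to 1.89 for Pcdhgb6. With the 6 blood libraries alone in the fit Cdh2 did not pass the filter on low counts, and 2 of the 8 genes tested were called, Pcdh7 and Pcdhgb4, beside 9.06% of all features.

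Markers of other cells moved with resection in blood. The summed 8 markers of peritoneal macrophages were at 820 to 2090 CPM in intact blood and at 5152 to 6675 CPM after resection, with 6 of 8 called higher, and stood at 133 to 236 CPM in spleen. Gata6, which defines these macrophages, was at 2.85 to 5.86 CPM in intact blood and at 17.7 to 23.7 CPM after resection, while spleen held 0 to 0.163 CPM. Of the 10 neutrophil markers 10 were called higher, and their sum went from 101 to 299 CPM to 3322 to 17014 CPM. The sum of the 10 red pulp macrophage markers went from 290 to 841 CPM to 2672 to 3523 CPM with 8 called higher, and that of the 10 monocyte markers from 3463 to 9125 CPM to 13059 to 14828 CPM with 4 called higher and 1 lower. The 8 stromal markers summed to 6.52 to 10.3 CPM in intact blood and to 25.5 to 43.8 CPM after resection, with 2 called higher. Among them Dcn, a proteoglycan gene of fibroblasts, was at 1.44 to 2.57 CPM and then at 8.52 to 9.34 CPM, and Lum at 0 to 0.055 CPM and then at 0 to 0.0679 CPM. Platelet markers went from 90.2 to 322 CPM to 818 to 902 CPM with 1 of 8 called higher, and plasma cell markers from 205 to 421 CPM to 447 to 459 CPM with 3 of 8 called higher. T cell markers went the other way, from 765 to 2274 CPM to 132 to 267 CPM, with 6 of 7 called lower. The 8 mesothelial markers summed to 2.64 to 6.27 CPM and then 10.6 to 12.7 CPM, and the 8 epithelial markers to 4.21 to 16.4 CPM and then 9.06 to 17.9 CPM, with 0 called in either list. Epcam, which defines epithelium, was at 1.25 to 4.42 CPM in intact blood and at 4.36 to 9.77 CPM after resection. In each of the remaining 10 of the 20 lists 0 or 1 gene was called, and over all 20 lists the sums of 11 did not overlap between intact and resected mice, 9 of them higher. Of all single features, 7.80% were called higher and 6.11% lower, and 38.4% did not overlap. The part of these cells in the changes of the cadherin genes was not tested, and in the RNA of many cells together a different mixture and a different level per cell cannot be told apart.

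In spleen after resection 0 of the 9 genes were called by edgeR's quasi-likelihood test, beside 0.780% of all features called higher and 0.601% called lower. At an unadjusted p under 0.05 there were 4, with Pcdh7, Pcdhgb6 and Cdh1 higher, beside 11.5% of all features, and Cdh24 lower, beside 9.31%. DESeq2 called 1, Pcdh7, beside 8.23% of all features. The median log2 fold change of the 9 was 0.06, against 0.05 over all features tested. The libraries of 3 of the 9 did not overlap, beside 35.1% of all features.

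Pcdh7 had the largest difference in spleen as well. Its libraries held 0.147, 0.0626 and 0.170 CPM in intact mice and 0.607, 0.349 and 1.01 CPM after resection, which is 3 to 8 counts and then 16 to 41 counts. The groups did not overlap. The log2 fold change was 2.34 (SE 0.65) with an adjusted p of 0.0890 in edgeR and 0.0113 in DESeq2. Pcdhgb6 went from 0.253, 0.250 and 0.0851 CPM to 0.607, 0.371 and 0.418 CPM without overlap, a log2 fold change of 1.23 (SE 0.52, adjusted p = 0.208).

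Cdh24 was lower in each splenic library after resection. It had 6, 5.97 and 3.87 CPM in intact spleen and 2.5, 2.23 and 2.02 CPM after resection, and its log2 fold change was -1.23 (SE 0.55, adjusted p = 0.240). Without library 3 of intact blood, whose values bear on the dispersion fitted over all groups, the same difference had an adjusted p of 0.0217 and was called. Cdh1 had 1.16, 1.5 and 1.4 CPM in spleen of intact mice. After resection it had 3.5, 1.33 and 4.08 CPM, and library 2 lay within the intact range. Its log2 fold change was 1.13 (SE 0.46, adjusted p = 0.201). For Pcdhgb4 it was 1.06 (SE 0.48, adjusted p = 0.244).

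The other 4 genes showed smaller differences in spleen. The log2 fold changes were 0.06 (SE 0.61) for Pcdhga10, -0.08 (SE 0.51) for Pcdhgb7, -0.05 (SE 0.53) for Cdh2 and -0.09 (SE 0.39) for Cdh17, with adjusted p from 0.936 to 0.974 in edgeR. Each changed sign when some single library was left out, and the standard errors leave room for changes of either sign. In the same libraries the neutrophil markers went from 833 to 1712 CPM to 4875 to 13323 CPM, with 2 of 10 called higher, and the red pulp macrophage markers from 1578 to 2449 CPM to 3092 to 6683 CPM, with 1 of 10 called higher. Plasma cell markers went from 2515 to 3565 CPM to 5016 to 5610 CPM with 0 of 8 called. B cell markers were at 5170 to 5907 CPM and then at 1315 to 4426 CPM with 0 of 10 called, and NK cell markers at 95 to 190 CPM and then at 14.8 to 57.5 CPM with 1 of 8 called lower. In 17 of the 20 lists 0 genes were called, and the sums of 11 lists did not overlap between intact and resected mice, 7 of them higher. Of all single features, 0.780% were called higher and 0.601% lower, and 35.1% did not overlap. The part of these cells in the splenic values was not tested.

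**Figure D4:**
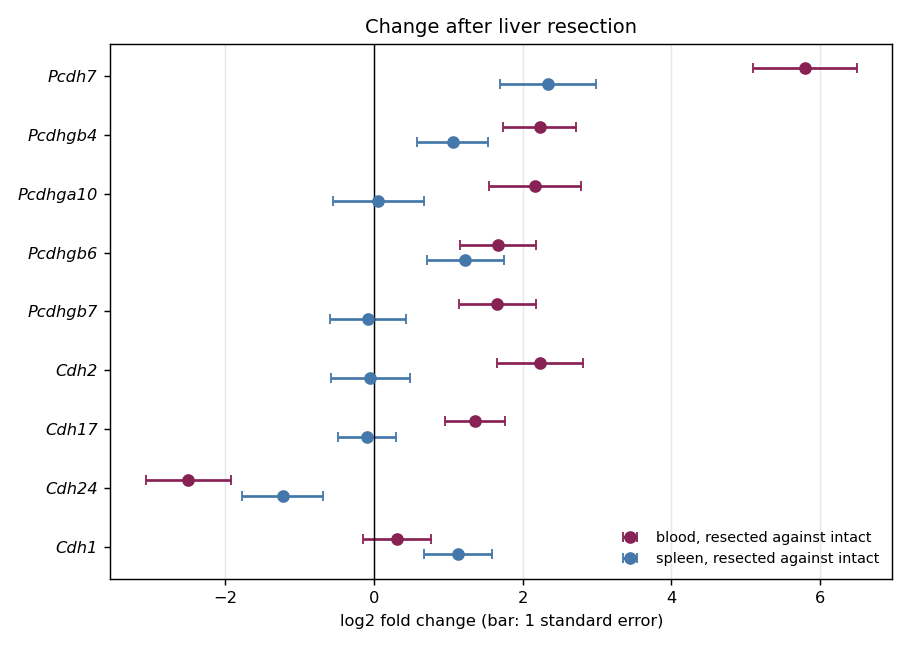
Log2 fold change after resection in blood (red) and spleen (blue) for the 9 genes, with bars of 1 standard error, from the fit over 12 libraries. Values in blood run from -2.50 for Cdh24 to 5.80 for Pcdh7, while those in spleen run from -1.23 to 2.34, and the blood values are most likely those by which the genes were chosen.

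The change after resection was not called different between blood and spleen for any of the 9 genes, beside 0.283% of all features. This comparison uses the blood libraries, on which the genes were most likely chosen, so its values are a description. The difference, blood minus spleen, was 3.46 (SE 0.90) on the log2 scale for Pcdh7, 2.29 (SE 0.78) for Cdh2, 2.11 (SE 0.86) for Pcdhga10, 1.74 (SE 0.73) for Pcdhgb7 and 1.44 (SE 0.55) for Cdh17. For Pcdhgb4 it was 1.17 (SE 0.68), for Pcdhgb6 0.43 (SE 0.73), for Cdh1 -0.82 (SE 0.65) and for Cdh24 -1.27 (SE 0.77).

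In intact mice Cdh2 and Cdh17 were called lower in blood than in spleen, 2 of 9, beside 3.49% of all features, and 0 of 9 were called higher, beside 3.86%. Cdh2 was at 0.0826, 0.0514 and 0.0655 CPM in blood and at 0.274, 0.438 and 0.362 CPM in spleen, at least 4.77-fold lower in blood. Cdh17 was at 8.71, 6.03 and 10.3 CPM in spleen, and its log2 fold change was -1.45 (SE 0.40). Neither call was firm, since Cdh2 kept it in 2 of the 12 fits without 1 library, those without library 1 of resected spleen or library 3 of resected blood, and Cdh17 in 1, that without library 2 of intact blood (-1.80). Cdh1 was higher in every blood library, with a log2 fold change of 1.50 (SE 0.47), and so was Pcdh7 with 2.01 (SE 0.65). For Cdh24 the value was 1.29 (SE 0.55), and 0.23 without library 3 of intact blood. The 4 gamma genes ran from 0.43 to 1.10, with standard errors of 0.48 to 0.61. The libraries of the 2 tissues did not overlap for 5 of 9 genes, beside 34.5% of all features.

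After resection 4 of the 9 were called higher in blood than in spleen, beside 6.28% of all features, and 0 lower, beside 6.86%. These were Pcdh7 with a log2 fold change of 5.47 (SE 0.69), Pcdhgb7 with 2.60 (SE 0.54), Pcdhga10 with 2.54 (SE 0.63) and Pcdhgb4 with 1.68 (SE 0.48). Pcdhgb6, with 1.53 (SE 0.51), did not overlap between the tissues either, so that 5 of 9 did not, beside 42.4% of all features. Pcdh7 and Pcdhgb7 were called in all 12 fits without 1 library, Pcdhga10 in 10, losing its call without library 2 of resected spleen (2.33) or library 2 of resected blood (2.51), and Pcdhgb4 in 6, losing its call without any 1 of the 6 libraries compared (1.46 to 2.01). Cdh2, Cdh17 and Cdh24 lay close to 0, with -0.09 (SE 0.53), -0.01 (SE 0.39) and 0.02 (SE 0.55), and Cdh1 had 0.68 (SE 0.46). The signs of Cdh2 and Cdh17 changed with the scaling factors.

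The wider cadherin family holds 119 genes in 8 lists, of which 37 passed the filter on low counts. Of the 37, 8 were called higher and 4 lower in blood after resection, beside the 7.80% and 6.11% of all features. Apart from the 9 genes, 28 were tested, and 1 was called higher and 3 lower. The choice had taken every called gene with a CDH or PCDH symbol, so calls among these 28 could only fall on genes of other names. The seven-pass cadherins, which act in planar cell polarity, accounted for 3 of these 4. Celsr1 fell from 41.9, 32.1 and 66.3 CPM to 11.5, 10.7 and 10.9 CPM, with a log2 fold change of -2.08 (SE 0.33, adjusted p = 0.00315 in edgeR), and was called in all 12 fits without 1 library. Celsr2 fell from 4.87, 4.68 and 18.7 CPM to 1.68, 1.49 and 1.80 CPM, with a log2 fold change of -2.51 (SE 0.54, adjusted p = 0.0107), and of -1.53 without library 3 of intact blood. Celsr3 rose from 6.91, 4.55 and 1.81 CPM to 16.6, 17.5 and 52.4 CPM, with a log2 fold change of 2.71 (SE 0.78, adjusted p = 0.0337), and its call was lost without libraries 1 or 2 of intact spleen or libraries 2 or 3 of either blood group (1.95 to 2.94). In spleen the 3 genes went the same way after resection, without overlap, and were not called. Their log2 fold changes there were -1.17 (SE 0.33) for Celsr1, -1.20 (SE 0.52) for Celsr2 and 1.76 (SE 0.75) for Celsr3. The edgeR adjusted p were 0.0886, 0.223 and 0.217. Of the 3 genes, Celsr1 was in addition higher in blood than in spleen, by 2.44 (SE 0.34, adjusted p = 0.00319) on the log2 scale in intact mice and by 1.53 (SE 0.33, adjusted p = 0.0117) after resection. The type II cadherin Cdh22 was higher in blood after resection than in spleen, by 2.29 (SE 0.67, adjusted p = 0.0393), a call that 7 of the 12 fits without 1 library lost (1.94 to 2.59), namely those without any of the 6 compared libraries except library 3 of resected spleen, and those without library 2 of intact spleen or of intact blood.

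The remaining called gene, the desmosomal cadherin Dsg2, rests on library 3 of intact blood. Dsg2 had 58.9 CPM there, from 2696 counts, and 0.0210 to 1.34 CPM in the other 11 libraries, from 1 to 52 counts. It was called lower after resection in blood, by -6.90 on the log2 scale (SE 1.78, adjusted p = 0.0224), and higher in blood than in spleen of intact mice, by 7.37 (SE 1.81, adjusted p = 0.0338), while without that library the values were -2.42 and 2.99 and neither was called. Other genes of desmosomes and related adhesion were high in the same library. Dsc3 had 295 counts against 0 or 1 in the other 11 libraries, Dsg1c 176 against 0, Dsc1 44 against 0 to 2 and the giant cadherin Fat4 180 against 0 to 7. With Pcdhgc3 and Pcdhgc4, 7 of the 57 family genes with at least 10 counts in a library were more than 5 times as high there as in any other library. Of the 9 genes, Cdh24 was 4.52 times the highest other library there, and the other 8 did not exceed it.

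**Figure D5:**
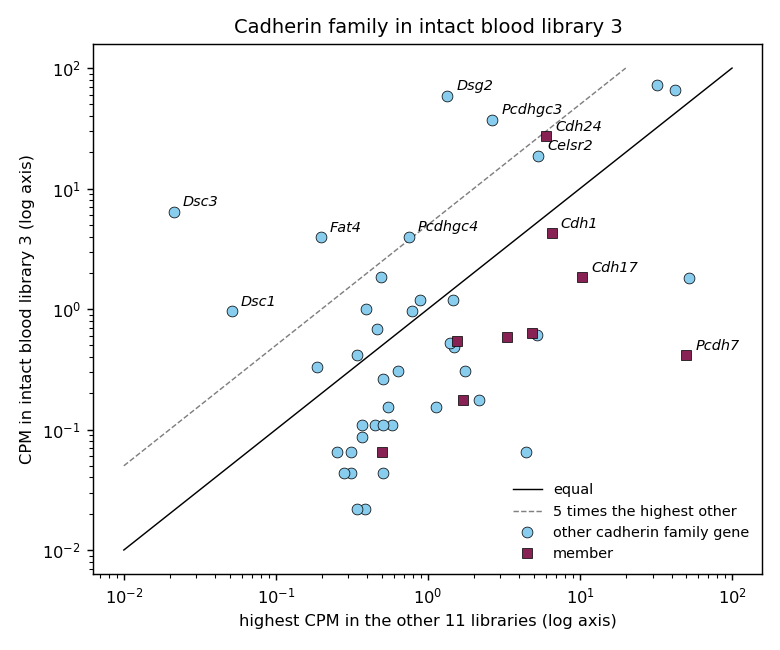
CPM in library 3 of intact blood (vertical, log axis) against the highest CPM in the other 11 libraries (horizontal, log axis) for the 49 cadherin family genes above 0 in both, with the 9 described genes as squares. Dsg2, Dsc3, Dsc1, Fat4, Pcdhgc3 and Pcdhgc4 lie above the dashed line of 5 times the highest other library, and Cdh24, at 4.52 times, lies just below it.

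In spleen after resection 0 of the 37 tested family genes were called by edgeR, with 7 higher and 3 lower at an unadjusted p under 0.05, beside the 11.5% and 9.31% of all features, and DESeq2 called 3, beside 8.23%. The median log2 fold change of the 37 was 0.12, against 0.05 over all features. In intact mice 2 family genes were called higher and 2 lower in blood than in spleen, beside 3.86% and 3.49% of all features. Both lower ones were among the 9 genes. After resection 6 were called higher, 4 of them among the 9, and 0 lower, beside 6.28% and 6.86%. For the difference between the 2 tissues in the effect of resection, edgeR called 0 of the 37, with 5 higher and 2 lower at an unadjusted p under 0.05, beside 7.74% and 9.56% of all features, and 1 called by DESeq2, beside 6.18%. All 5 higher ones were among the 9 genes, and so was the gene called by DESeq2, Pcdh7. The 9 were most likely chosen on blood libraries of this comparison, so these counts support nothing. Of the 28 other family genes 0 were higher and 2 lower at that unadjusted p.

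Genes that act on cadherins were measured in 6 further lists of 76 genes, of which 69 were tested. In blood after resection 15 were called higher and 5 lower, beside the 7.80% and 6.11% of all features. The list of cadherin cleavage and turnover, which includes the proteases that cut cadherin ectodomains, had 6 of 14 tested genes called higher and 0 lower, and its median log2 fold change was 0.99, against -0.10 over all features. Mmp9, a secreted gelatinase also found in neutrophil granules, rose from 78.4, 86.0 and 20.3 CPM to 499, 657 and 1830 CPM, with a log2 fold change of 4.01 (SE 0.74, adjusted p = 0.00568). Adam9 rose by 1.93 (SE 0.30, adjusted p = 0.00299), Adam17 by 1.26 (SE 0.26, adjusted p = 0.00896) and the endocytic adaptor Numb by 1.93 (SE 0.41, adjusted p = 0.0108) on the same scale. Adam17 lost its call without library 3 of resected blood (0.99), and Numb lost it when entries were not summed per gene (1.26). Adam10, the main sheddase of E- and N-cadherin and of the gamma protocadherins, was at 194, 184 and 162 CPM in intact blood and at 204, 221 and 284 CPM after resection and was not called.

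Of the 14 genes for protocadherin promoter choice and chromatin, 0 were called higher and 2 lower in blood after resection, beside 7.80% and 6.11% of all features. Their median log2 fold change was -0.56, against -0.10 over all features. Without library 3 of intact blood 0 were called, and the median was -0.50, against 0.00 over all features. Ctcf, whose product loops clustered protocadherin promoters to their enhancers, fell from 139, 153 and 258 CPM to 85.5, 82.2 and 77.0 CPM, by -1.17 (SE 0.21, adjusted p = 0.00466) on the log2 scale. Without library 3 of intact blood the value was -0.84, under the limit for a call. The other called gene, Dnmt1, which encodes the maintenance DNA methyltransferase, was at 75.5, 80.9 and 370 CPM in intact blood and at 48.3, 49.9 and 38.6 CPM after resection, with a log2 fold change of -1.94 (SE 0.54, adjusted p = 0.0294) that became -0.78, not called, without library 3. Of the 7 tested repressors of cadherin genes 3 were called higher (Snai1, Zeb2 and Twist1) and 2 lower (Snai3 and Zeb1), and without library 3 of intact blood 1 was called, Twist1 (2.60). Without it Snai1 had 1.68, Zeb2 0.85 and Snai3 -1.15. Twist1 was at 0.11, 0.0257 and 0.0218 CPM in intact blood and at 0.397, 0.374 and 0.507 CPM after resection. Libraries 2 and 3 of intact blood were thus under the limit of counting, and the size of its change is uncertain. In the 12 fits that each left out 1 library Twist1 was called in 9, Snai1 in 5, Snai3 in 3 and Zeb2 in 1. Zeb1 fell by -1.14 (SE 0.16, adjusted p = 0.00190), and by -0.99 without library 3 of intact blood, where it was no longer called. In spleen Snai1, which encodes Snail, was the single called gene of the 69 after resection, beside 0.780% of all features called higher and 0.601% lower. It rose from 1.14, 1.02 and 2.23 CPM to 9.29, 5.85 and 10.8 CPM, with a log2 fold change of 2.56 (SE 0.49, adjusted p = 0.0373). Leaving out 1 library kept that call in 4 of 12 fits, those without library 3 of intact spleen, libraries 1 or 3 of resected blood or library 3 of intact blood, and the value ran from 2.36 to 2.99.

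Among receptors and tail partners, Itgb1, the integrin beta subunit of collagen and laminin receptors, rose in blood from 383, 388 and 385 CPM to 766, 850 and 776 CPM. Its log2 fold change was 1.05 (SE 0.14, adjusted p = 0.00148). Lgals3, a lectin of macrophages, rose by 1.99 (SE 0.43, adjusted p = 0.0112), and Cyfip1, a subunit of the WAVE complex that drives actin branching, by 1.86 (SE 0.28, adjusted p = 0.00238). All 3 were called in every fit without 1 library. In intact mice Itgb1 and the membrane protease Adam15 were higher in blood than in spleen, by 1.38 (SE 0.14, adjusted p = 0.00107) and 2.33 (SE 0.33, adjusted p = 0.00381), and the catenin relative Ctnnal1 was lower, by -1.85 (SE 0.33, adjusted p = 0.00965). Afdn, Nckap1 and Ptk2b were the other called genes there, with log2 fold changes of 2.85, 2.80 and -1.13. Ptk2b lost its call without library 1 of intact spleen (-1.03) or library 3 of intact blood (-0.86), Nckap1 without any library of intact spleen (2.74 to 3.07), and Afdn without any library of intact spleen, libraries 1 or 2 of resected spleen or any library of resected blood (2.87 to 2.97). Without library 3 of intact blood, which had 308 CPM of Afdn against 16.7 to 46.4 CPM in the others, the value of Afdn was 1.12.

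After resection 7 of the 69 were called higher and 4 lower in blood than in spleen, beside 6.28% and 6.86% of all features. Itgb1 was higher by 2.16 (SE 0.14, adjusted p = 5.78e-05), Adam15 by 3.01 (SE 0.34, adjusted p = 0.000778), Cyfip1 by 1.78 (SE 0.28, adjusted p = 0.00287) and the recycling GTPase Rab11a by 1.17 (SE 0.17, adjusted p = 0.00225). Zfp143, a factor of chromatin loops, was lower by -1.18 (SE 0.16, adjusted p = 0.00178), and Ctnnal1 by -1.92 (SE 0.33, adjusted p = 0.00427). These 6 were called in all 12 fits without 1 library. Zeb2, Itga2 and Adam9 were higher with log2 fold changes of 1.62, 2.52 and 1.21, and Lima1 lower with -1.49. Zeb2 lost its call without libraries 1 or 2 of resected spleen or library 3 of resected blood (1.45 to 1.66), Itga2 without library 2 of resected spleen (2.37), Adam9 without libraries 1 or 2 of resected spleen or 2 or 3 of resected blood (1.13 to 1.28), and Lima1 without library 2 of resected spleen or library 3 of resected blood (-1.25 and -1.26).

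Leaving library 3 of intact blood out of the fit, with 21021 features tested, moved several of these counts. For resection in blood 4 of the 9 genes were then called higher and 1 lower, beside 6.81% and 5.35% of all features, and of the 32 other family genes tested 2 were called higher, Pcdhga8 and Pcdhgc3, and 2 lower, Celsr1 and Celsr2. Of the 69 genes that act on cadherins 11 were called higher and 2 lower, and all 5 that had been called lower with the library, Plekha7 (-1.67 with the library) among them, lost that call. For resection in spleen 3 of the 41 family genes were called lower, Cdh24, Celsr1 and Celsr2, and 0 higher, beside 1.90% and 2.99% of all features. Between the tissues of intact mice 1 family gene, Celsr1, was called higher in blood and 0 lower, beside 4.77% and 2.34%. After resection 9 were called higher and 1 lower, beside 8.62% and 8.62%.

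The genes whose levels ran most like those of the 9 were sought among 14902 tested genes with a symbol and a mean of at least 10 counts, by Pearson correlation of log2 CPM over the 12 libraries. The libraries share their groups and cell mixtures, so the values are descriptions. Pcdh7 was most like Vat1 (0.987), Cyfip1 (0.986) and Rhoa (0.985). Pcdhgb4 ran with Camk1, Sdc3 and Bmp2 (0.951 to 0.952), Pcdhga10 with Ppfibp1, Adam30 and Nudt17 (0.942 to 0.951), Pcdhgb6 with Padi4, Saa3 and Rbm18 (0.944 to 0.950), and Pcdhgb7 with Dusp3 (0.978) and Tpp2 (0.966). For Cdh2 the genes were Tlr4 (0.931) and Il1r1 (0.928), and for Cdh17 Rab4b, Rchy1 and Hrh1 (0.915 to 0.928). Cdh24 was most like Zfp664 (0.981), Celsr2 (0.980) and Mlec (0.979), and Cdh1 was most like Fbxo33, Lin7c and Ttll11 (0.926 to 0.930).

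Among the 9 genes themselves, over the same 12 libraries, Pcdh7 and the 4 gamma genes ran together, with correlations of 0.851 to 0.893 between Pcdh7 and each gamma gene and of 0.633 to 0.852 among the gamma genes, some of which share reads. Cdh17 and Cdh2 formed another pair (0.680). Cdh24 ran against Cdh17 (-0.755) and Cdh2 (-0.632). Cdh1 was closer to the gamma genes (0.580 to 0.767) than to Cdh17 (-0.276) or Cdh2 (-0.300).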

How the data were processed

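RNA-seq of CD115+ monocytes was analysed in 12 libraries, 3 in each of 4 groups, with groups and replicate numbers from the labels. For every library the authors deposited estimated counts per entry, scaled neither to depth nor to gene length. The submitters' processing notes name STAR and GRCm39, and the counting tool and annotation are not given in the sources used here. There were 67088 entries per library, and 24256 of these carried gene symbols. Of 40274 RefSeq accessions 25340 were matched to a gene through the RefSeq table of GRCm38.p6, used for names only. Unassigned entries, with 1.75% to 4.33% of the counts, were not used. Counts were summed per gene, rounded, kept by filterByExpr, scaled with TMM factors (0.661 to 1.26) and tested in R 4.3.3 with edgeR 4.0.16 (robust quasi-likelihood test, 1 fit of 4 groups, no covariates, common dispersion 0.312). P-values were adjusted over all 20135 features by Benjamini-Hochberg. Calls needed an adjusted p under 0.05 together with a log2 fold change beyond 1 in either direction. Each standard error was the fold change divided by the square root of F. The script was tested on simulated data. Alternatives were DESeq2 1.42.0, RLE factors, other filters, entries not summed, haemoglobin genes left out, a replicate block, only the compared groups, no fold limit and each library left out.

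The 9 genes and all gene lists were chosen with earlier results of these data known. The named genes are the 9, up to 10 called genes per comparison with the smallest p among the family lists and among the partner lists, and 3 genes of like pattern for each of the 9. A few genes that this rule names are not reported here. Adam10, Snai3, the called repressors, Dnmt1, Plekha7, and the gamma genes and markers outside the rule were named after their values were seen. Limits from 3 counts cover only counting error, and the sources name no molecular identifiers. Library pairs within a group differed beyond counting noise (19.7 to 560 chi-square units per degree of freedom), so each library was taken as a replicate.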

Additional observations from a re-analysis of the deposited data

Results flagged for a closer look

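The transcription factor gene Snai3, one of the listed repressors of cadherin genes, had log2 fold changes of opposite sign in the tissues. In blood it was at 0.523, 0.591 and 12.2 CPM in intact mice and at 0.305, 0.306 and 0.141 CPM after resection, and in spleen at 0.168, 0.480 and 0.532 CPM and then at 2.48, 0.961 and 0.860 CPM, without overlap in either tissue. The log2 fold change was -4.14 (SE 1.24, adjusted p = 0.0397 in edgeR) in blood, called in 3 of the 12 fits without 1 library, and 1.86 (SE 1.12, adjusted p = 0.382) in spleen, not called. The difference of the resection effect, blood minus spleen, was -6.00 on the log2 scale (SE 1.66) and was not called (edgeR adjusted p = 0.157). The 12.2 CPM belongs to library 3 of intact blood, and without that library the change in blood was -1.15 and was not called.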

How the results depend on the processing

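Counts of called genes depended on the settings. For the whole family of 37 tested genes, the 12 calls for resection in blood became 7 with no low-count filter, 7 with at least 10 counts in every library (12 genes tested), 6 with a replicate block, 3 with the blood groups alone (32 tested) and 4 to 12 without 1 library. The 0 calls in spleen became 3 with DESeq2 and 0 to 3 without 1 library. The 4 calls between tissues in intact mice became 9 with DESeq2, 2 with no filter, 2 with the stricter filter, 1 with the replicate block and 1 to 4 without 1 library. The 6 after resection became 3 with the stricter filter and 3 to 10 without 1 library, the 10 being without library 3 of intact blood. The 0 calls for the difference of effects became 1 with DESeq2 and stayed 0 without 1 library. Of the 9 described genes, the 8 calls in blood became 3 with no filter, 4 with the stricter filter (5 tested), 4 with the replicate block, 2 with the blood groups alone (8 tested) and 2 to 8 without 1 library. The 0 in spleen became 1 with DESeq2 (Pcdh7) and 0 to 1 without 1 library. The 2 in intact mice became 4 with DESeq2, 1 with RLE factors, with entries not summed, without haemoglobin genes, with the stricter filter and with the compared groups alone, 0 with no filter and with the replicate block, and 0 to 1 without 1 library. The 4 after resection became 2 with the stricter filter and 2 to 5 without 1 library, and the 0 for the difference of effects became 1 with DESeq2 and stayed 0 without 1 library. The cause of these changes was not tested, apart from the smaller number of genes tested under the stricter filter and with the blood groups alone.

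Deviations of same-numbered libraries from their group means had correlations of -0.0461 to 0.189. For blood against spleen after resection the same numbers gave 0.042, 0.131 and 0.189, and unlike numbers -0.186 to 0.0734. These values do not settle whether the samples were paired, and the numbers were not used as pairs in the main fit. No called gene changed direction under any alternative run. Over all features, DESeq2 called 956 higher and 608 lower in spleen, against 157 and 121, and 651 and 499 for the difference of effects, against 44 and 13. Leaving out haemoglobin genes moved the median log2 fold change of all features between tissues by 0.12. Low counts limit the gamma genes and Cdh2 most.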
